A study of Mus musculus with 8 samples.

Results

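The clustered protocadherins are cell-surface adhesion proteins of neurons, encoded in 3 neighbouring gene clusters called alpha, beta and gamma. They were taken here by symbol from a deposited table of gene expression in the embryonic mouse striatal anlage. The rule kept symbols that start with Pcdha, Pcdhb or Pcdhg followed by an isoform number or letter, and found 53 genes of the 16913 in the table. These were 12 alpha, 19 beta and 22 gamma genes. The GENCODE M21 annotation has 58 such genes, and Pcdha1, Pcdha8, Pcdhb1, Pcdhb13 and Pcdhb14 were not analysed here.

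The tissue was the lateral ganglionic eminence (LGE), the germinal zone and mantle that give rise to striatal projection neurons, dissected at embryonic day 14.5 from mice of mixed C57BL/6J and CD1 stock. The 4 control samples came from littermates of genotype Dlx5/6-Cre;Meis2F/+, with 1 floxed Meis2 allele. The 4 Meis2-CKO samples had the genotype Dlx5/6-Cre;Meis2F/F, with both alleles floxed. The Cre driver was thus present in both groups, it acts in Dlx-expressing cells of the ventral forebrain, and the control is not a wild type. Values below are the authors' mean expression signal per genotype, whose unit the file does not name. Their log2 fold change is Meis2-CKO over control, so a value below 0 means a lower level in the knockout. The p-values are theirs too. The file also has values per library, but their column names match no sample label and they were not used. No spread between embryos was therefore computed, the sequencing depth is unknown, and whether neighbours in an order of levels differ beyond replicate error was not tested.

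Each alpha and gamma gene has a large first exon of its own, read from its own promoter, that is spliced to a set of constant exons common to its cluster. The first exon encodes the cadherin repeats, the membrane span and part of the tail, and the constant exons encode the rest of the cytoplasmic tail. Beta genes consist of a single large coding exon and lack the constant tail. A neuron switches on a small and largely random set of the alternate promoters, a choice that involves DNA methylation and loops made by CTCF and cohesin. The C-type genes, 5 in all, are regulated in a less random way. The proteins bind the same isoforms on facing membranes, and the combinations give neurites an identity used for self-avoidance and for the spacing of axons and dendrites. Gamma isoforms are also needed for survival of some interneurons.

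The clusters lie on chromosome 18 of GRCm38, over 912 kb. The annotated alpha genes span 36930184 to 37187661, the beta genes 37264938 to 37524479 and the gamma genes 37661793 to 37841873. The annotation shows 3 exon blocks common to all 14 alpha genes, of 59, 89 and 2716 nt, and 3 common to all 22 gamma genes, of 59, 89 and 1971 nt. Own exon bases made up a median of 46.6% of an alpha gene and 55.3% of a gamma gene. Among beta genes the median was 100%, and Pcdhb21 (90.3%) and Pcdhb22 (93.1%), which overlap each other by 455 nt, were the exceptions. Outside the constant exons, Pcdhgb1 and Pcdhga4 overlap by 1038 nt, and Pcdhgb4 and Pcdhga8 by 108 nt. Pcdhga4 had the lowest share of own exon bases, 33.2%. Stretches of 100 nt that also occur in transcripts of another gene made up a median of 55.4% of an alpha gene, 43.6% of a gamma gene and 0.207% of a beta gene. The highest share, 88.4%, was that of Pcdha4, which overlaps the predicted read-through gene Gm42416. The sources used here do not say how reads in shared exons were assigned. Values of alpha genes therefore need not be independent of one another, and the same holds for gamma genes.

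**Figure D1:**
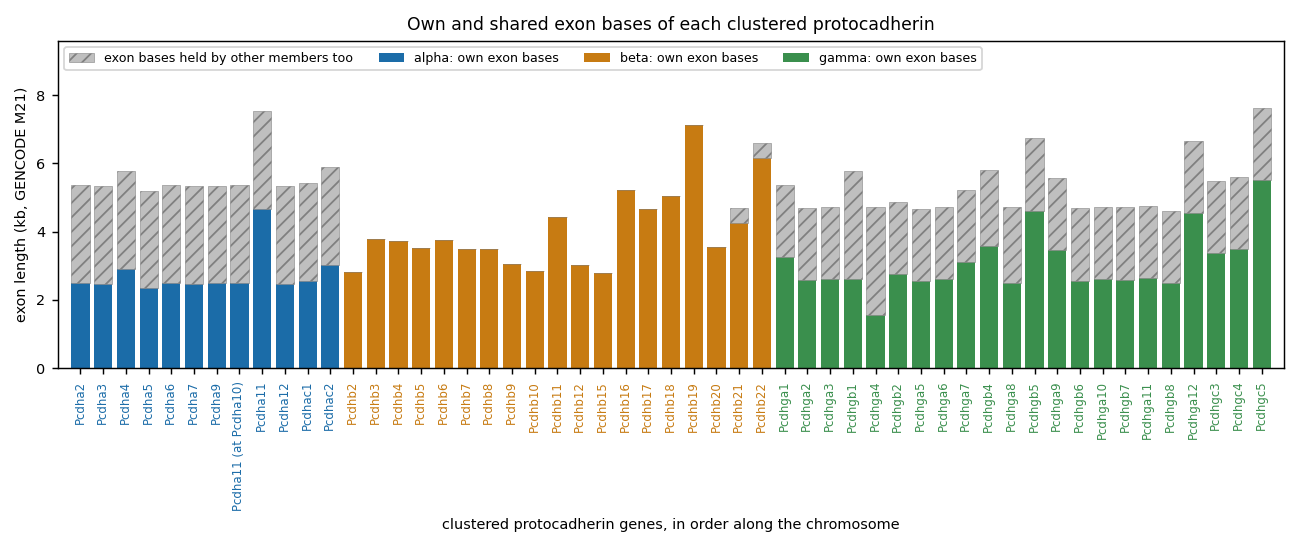
Exon length in kb of each of the 53 listed genes, in order along the chromosome. Coloured bars are exon bases of that gene alone and hatched grey bars are bases held by other members too. Every alpha and gamma bar has a large shared part, while among beta genes only Pcdhb21 and Pcdhb22 have one.

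The alpha list has Pcdha11 in 2 rows with different Ensembl identifiers. The row ENSMUSG00000007440 starts 117 nt before the RefSeq start of Pcdha10, and the row ENSMUSG00000102206 starts 146 nt before that of Pcdha11. The first is called here the row at the place of Pcdha10. The annotation types Pcdhgb8 as a polymorphic pseudogene and the other 52 as protein-coding.

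As a check of the targeted gene, Meis2 was looked up in the authors' deposited table, where it fell from 204 in control to 140 in Meis2-CKO (adjusted p = 0.00195, log2 fold change -0.53). Of 10 genes fixed as markers of LGE identity 4 fell, namely Isl1, Ebf1, Foxp1 and Bcl11b, and none rose. By sign 6 lay below 0 and 4 above, the latter being Dlx1 (log2 fold change 0.35), Dlx5 (0.36), Dlx2 (0.34) and Gsx2 (0.22). All 10 had control means of at least 20.9. The Y-linked genes Eif2s3y (50.5 and 14.0), Ddx3y (14.1 and 4.03) and Kdm5d (13.1 and 4.09) also passed as lower in the authors' deposited table. Xist stood at 78.0 and 256. Y-linked signal thus differed between the groups, and sex cannot be told apart from genotype in the values below. The embryos' sex is not in the labels, and its part was not tested.

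The gamma cluster held most of the clustered protocadherin signal in both genotypes. Its 22 genes summed to 106 in control against 104 in Meis2-CKO, which was 73.3% and 76.5% of the signal of all 53 genes. The 19 beta genes summed to 23.4 and 19.8 (16.2% and 14.6%), and the 12 alpha genes to 15.0 and 12.2 (10.4% and 8.94%). These shares compare genes on the deposited scale, which behaves as if divided by gene length. Over 5 bins of protein-coding genes, the median exon length went from 1724 to 10060 nt and the median control mean only from 9.18 to 14.2. The shares also depend on how reads in the constant exons of alpha and gamma genes were assigned, which is unknown.

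Both of the highest members were C-type gamma genes. Pcdhgc4, the isoform tied most closely to interneuron survival, had means of 27.3 in control against 24.6 in Meis2-CKO. Pcdhgc3, which promotes dendrite branching and binds the Wnt-pathway scaffold Axin1, had 26.7 and 27.0. Together they made up 51.2% of the gamma signal in control and 49.7% in Meis2-CKO. Their control means were over 4 times that of the next member, Pcdhga11 (5.93 in control, 6.41 in Meis2-CKO). The third C-type gamma gene, Pcdhgc5, which is known as a partner of GABA-A receptors at synapses, was far lower at 2.11 and 2.06. Among all genes of the table, Pcdhgc4 and Pcdhgc3 stood at percentiles 76.7 and 76.3 of the control mean and Pcdhga11 at 44.0.

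The alternate gamma genes, 12 of type A and 7 of type B, ranged in control from 0.453 for Pcdhgb8 to 5.93 for Pcdhga11. Pcdhgb7 (5.39 in control, 5.59 in Meis2-CKO), Pcdhgb6 (4.33 and 4.10) and Pcdhga4 (3.58 and 3.66) came after Pcdhga11 in the order of control means. Pcdhga7 (3.32 and 3.34) was at nearly the same level in both genotypes. The C-type alpha gene Pcdhac2, required for the tiling of serotonergic axons, was the highest alpha gene at 3.35 in control against 2.90 in Meis2-CKO. The other C-type alpha gene, Pcdhac1, stood at 1.06 and 0.970, within the range of the alternate alpha genes (0.713 to 1.57 in control). Among beta genes Pcdhb17 (2.87 and 2.53), Pcdhb7 (2.85 and 2.28), Pcdhb20 (2.70 and 2.13) and Pcdhb22 (2.22 and 1.95) stood above the other 15, whose control means lay between 0.378 and 1.23. In all, 16 of the 53 members had a mean under 1 in both genotypes, 6 of them alpha, 9 beta and 1 gamma. The order of levels was nearly the same in both genotypes, with Spearman's rho = 0.99 between the control and knockout means across 53 genes, a description of genes that share libraries and, in part, exons.

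**Figure D2:**
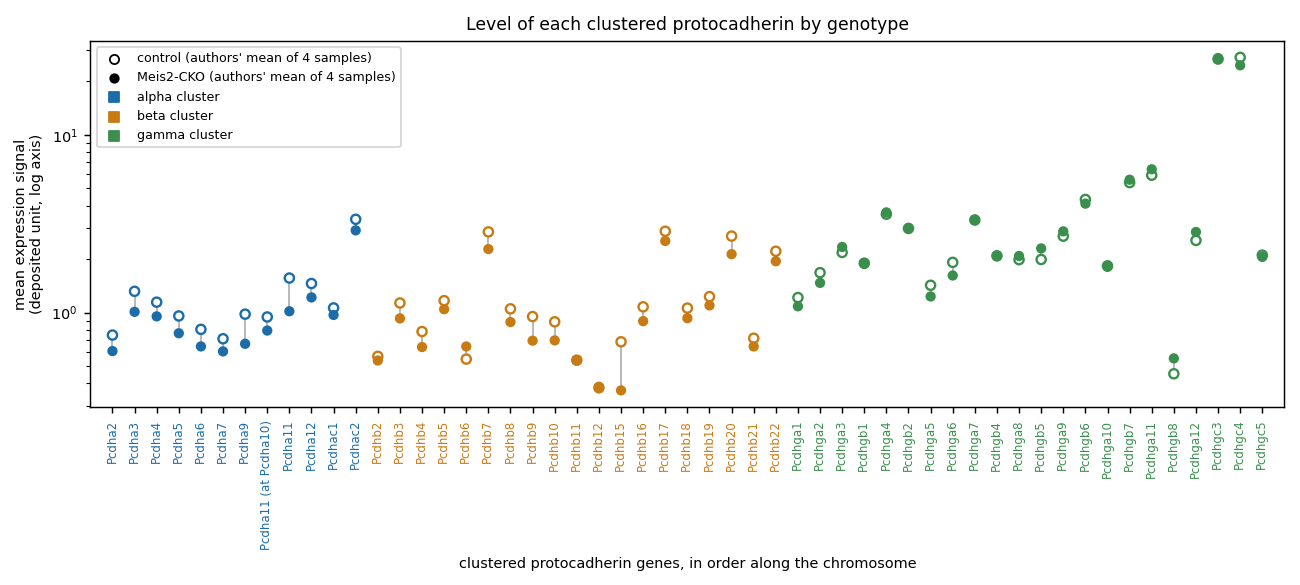
Authors' mean expression signal of each gene on a log axis, with genes in order along the chromosome. Open points are control and filled points Meis2-CKO, each a mean of 4 samples, with no error computed. Filled points lie below open ones in all 12 alpha and in 17 of 19 beta genes, while in the gamma cluster they lie on both sides.

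The comparison of Meis2-CKO with control asked whether loss of Meis2 from the Dlx lineage changed these genes. None of the 53 passed an adjusted p of 0.05 in the authors' deposited table, and none had an unadjusted p under 0.05. Over all genes 0.78% passed (0.237% as higher, 0.544% as lower), and 2.17% had an unadjusted p under 0.05. The sources used here do not name the tool behind the deposited test, and no other test was run. The smallest p among members was that of Pcdhgc4 (log2 fold change -0.14, p = 0.498 in the authors' deposited table), and the other 52 all had a p over 0.5. Over all genes 80.2% had a p over 0.5 and the median p was 0.76, while evenly spread p-values would have a median of 0.5. The deposited p-values thus ran high across the table, and a p over 0.5 does not show that a gene was unchanged.

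The deposited test made few calls at the members' levels. Among all genes with a control mean from 1 to 3, where 29 members lie, 4 of 2422 passed, and the smallest absolute log2 fold change among those 4 was 4.29. From 0.3 to 1, where 16 members lie, 2 of 2546 passed, the smaller at 2.42. From 3 to 10, with 6 members, 46 of 3376 passed and the smallest was 1.25. In the range from 20 to 30, which holds Pcdhgc3 and Pcdhgc4, 17 of 1578 passed and the smallest was 0.80. Restricted to genes of at least 300 nt of exon, the calls in these ranges were 0 of 2342, 1 of 2463, 13 of 3284 and 12 of 1570. The largest absolute log2 fold change of a member in the same order was 0.55, 0.72, 0.19 and 0.14. In each of the 4 ranges, every member's difference was thus smaller than the smallest one called, with or without the restriction on length where a call remained.

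In the alpha cluster all 12 members had a deposited log2 fold change below 0, from -0.55 to -0.11, with a median of -0.23. Over all genes 46.7% lay below 0, and the median was 0.01. The lowest was Pcdha11 (row ENSMUSG00000102206), at 1.57 in control against 1.02 in Meis2-CKO (p = 0.503 in the authors' deposited table). Pcdha9 stood at 0.980 and 0.668 (log2 fold change -0.47) and Pcdha3 at 1.32 and 1.01 (log2 fold change -0.33). The row at the place of Pcdha10 stood at 0.945 and 0.793, and Pcdha12 at 1.46 and 1.22. The remaining alternate genes, Pcdha2, Pcdha4, Pcdha5, Pcdha6 and Pcdha7, had log2 fold changes from -0.27 to -0.19. The C-type gene Pcdhac1 had the value nearest to 0 in the cluster, -0.11. The C-type gene Pcdhac2 (-0.187) was at nearly the same value as the alternate gene Pcdha7 (-0.188). The summed alpha signal in Meis2-CKO was 80.8% of control. Because 2864 nt of constant exon are common to these genes, the 12 values do not count as 12 separate observations.

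In the beta cluster 16 of 19 members lay below 0, and the median log2 fold change was -0.17. Their exons are almost entirely their own, so this count is not built on shared constant exons, although all members share the same libraries. The value furthest from 0 belonged to Pcdhb15, at 0.685 in control against 0.365 in Meis2-CKO (log2 fold change -0.72, p = 0.535 in the authors' deposited table). Pcdhb9 came next, at 0.950 and 0.695 (log2 fold change -0.38). Of the beta genes with a mean of at least 1, Pcdhb20 (log2 fold change -0.31) and Pcdhb7 (log2 fold change -0.29) were lowest, and Pcdhb5 (log2 fold change -0.13) and Pcdhb19 (log2 fold change -0.14) were nearest to 0. Pcdhb17, the highest beta gene in control, had a log2 fold change of -0.16. The 3 members above 0 were Pcdhb6 (0.548 and 0.645, log2 fold change 0.21), Pcdhb12 (0.378 and 0.383) and Pcdhb11, which had means of 0.540 and 0.538 and a deposited log2 fold change of 0.00. The summed beta signal in Meis2-CKO was 84.7% of control.

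The gamma cluster did not lean the same way. Of its 22 members 9 lay below 0 and 13 above, with a median log2 fold change of 0.02 and a range from -0.22 to 0.24. For Pcdhgb2 (2.98 in control, 2.97 in Meis2-CKO) and for Pcdhb11 the deposited log2 fold change is just above 0 although the knockout mean is the lower. The lowest values were those of Pcdhga6 (1.92 in control, 1.62 in Meis2-CKO, log2 fold change -0.22) and Pcdhga5 (1.43 and 1.23, log2 fold change -0.18). The highest among members with a mean of at least 1 were Pcdhgb5 (1.99 and 2.30, log2 fold change 0.21) and Pcdhga12 (2.55 and 2.84, log2 fold change 0.16). Pcdhgb8 had the highest value of all, 0.24, at means of 0.453 and 0.553. The summed gamma signal in Meis2-CKO was 98.5% of control, and 101.6% for the type A and B genes alone. Whether the gamma genes differ from the alpha and beta genes was not tested.

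Within the 19 type A and B gamma genes, values tended to be higher toward the constant exons. Spearman's rho between order along the chromosome and the log2 fold change was 0.56 across these 19 genes, and 0.31 across all 22 gamma genes. For the 19 beta genes rho was -0.03, and for the 12 alpha genes 0.46. These are descriptions that were not among the planned results, with no test, over genes that share libraries and, in alpha and gamma, exons. The first and second gamma genes, Pcdhga1 and Pcdhga2, had log2 fold changes of -0.14 and -0.16, and the last before the C-type genes, Pcdhga12, of 0.16. Other genes departed from this order. The third, Pcdhga3, had 0.11, and the lowest values, of Pcdhga5 (-0.18) and Pcdhga6 (-0.22), lay further along. Pcdhgb6 (-0.06) and Pcdhga10 (-0.01), nearer to the constant exons, lay below 0.

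**Figure D3:**
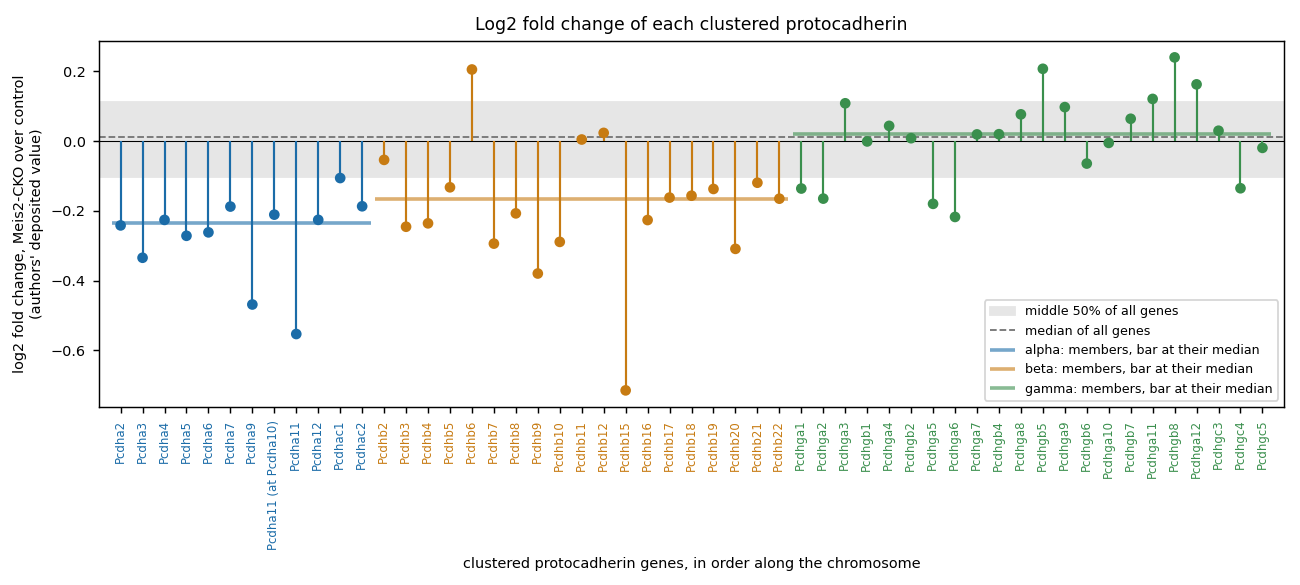
Deposited log2 fold change (Meis2-CKO over control) of each of the 53 genes in order along the chromosome. Thick bars are the cluster medians (-0.23 alpha, -0.17 beta, 0.02 gamma), the grey band holds the middle 50% of all genes and the dashed line is their median of 0.01. All alpha points and all but 3 beta points lie below 0. The band is not matched for level. For genes with a control mean from 0.3 to 1 the middle 50% ran from -0.298 to 0.201. From 1 to 3 it ran from -0.217 to 0.131.

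The same counts were taken among genes of like level. Of the 45 members with a control mean under 3, 34 lay below 0 (75.6%), against 53.1% of the 4968 genes of the table with a control mean from 0.3 to 3, whose median was -0.02. By cluster these were 11 of 11 alpha, 16 of 19 beta and 7 of 15 gamma members, with medians of -0.24, -0.17 and 0.01. On the deposited log2 scale 4 of the 53 members differed by 1.3-fold or more (Pcdha9, Pcdha11 in the row ENSMUSG00000102206, Pcdhb9 and Pcdhb15). By the log2 ratio of its means (-0.383), Pcdha3 did too. Over all genes 14.2% did on the deposited scale, but these were not matched for level. Their median control mean was 8.34, against 1.425 for the members. The lower quartile of log2 fold changes was -0.298 for genes with a control mean from 0.3 to 1, -0.217 from 1 to 3 and -0.065 from 20 to 30. The beta median lay above both of the first values, and the alpha median lay between them. The share differing by 1.3-fold among genes of like level was not computed. In these bulk samples, fewer cells that express a gene and less RNA per cell cannot be told apart.

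Levels of young neurons and progenitors are given beside these values, since clustered protocadherins are expressed mainly by neurons. No gene of either list passed in the authors' deposited table. Of 10 genes fixed for young neurons 7 lay below 0, with a median of -0.19 on the log2 scale and a summed signal of 2109 in control against 1902 in Meis2-CKO. The growth-cone gene Gap43 stood at 108 and 79.2 and the intermediate filament gene Ina at 63.5 and 47.4, while the microtubule genes Dcx (168 and 174) and Map2 (229 and 238) had higher means in the knockout. All 10 genes fixed for radial glia and progenitors lay above 0, with a median of 0.24 and a summed signal of 1981 and 2266. Over all genes 46.7% lay below 0. The part of these cell types in the alpha and beta values was not tested.

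Markers of other cell types also held no call in the authors' deposited table. The summed signal of 7 endothelial and pericyte genes was 56.8 in control against 58.6 in Meis2-CKO (6 of 7 above 0), and that of 6 microglia and macrophage genes 36.6 and 38.3 (5 of 6 above 0). The 5 meningeal fibroblast genes all lay below 0 at low levels, summing to 5.48 and 2.87. For choroid plexus, an epithelium rich in clustered protocadherins, Kcnj13 stood at 0.035 and 0.355 and Otx2 at 7.78 and 7.50. Ttr, Clic6 and Folr1 were not analysed here. The part of these cells in the members' values was not tested.

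Genes around the clusters had log2 fold changes close to 0 for the most part. Of 17 neighbours fixed as a list, 15 were listed, none passed in the authors' deposited table and 12 lay below 0 (median log2 fold change -0.04). The share below 0 over all genes was 46.7%. Taf7, a subunit gene of the general transcription factor TFIID that lies between the beta and gamma clusters, stood at 9.54 in control against 9.04 in Meis2-CKO. Diaph1, which encodes an actin-nucleating formin and follows the gamma cluster, stood at 12.4 and 11.2, and Zmat2, upstream of the alpha cluster, at 50.7 and 49.1. The smallest p-values in the list were those of Rell2 (8.98 and 5.77, log2 fold change -0.62) and the non-clustered protocadherin gene Pcdh1 (17.8 and 15.2, log2 fold change -0.21). The span of the clusters holds 9 rows that are no members, Taf7 included. Another of them is Gm38182, a transcript within the gamma constant region that shares exon sequence with the gamma genes, at 1.87 and 0.965 (log2 fold change -0.86, p = 0.286 in the authors' deposited table).

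Regulators of protocadherin promoter choice had slightly higher means in the knockout and no call. The list held 24 genes of CTCF, cohesin and its loaders and release factors, DNA methylation and repressive chromatin. None passed in the authors' deposited table, 1 had an unadjusted p under 0.05, and 23 lay above 0, with a median log2 fold change of 0.08 and a range from -0.00 to 0.30. Over all genes 46.7% lay below 0, and 2.17% had an unadjusted p under 0.05. Stag2, a cohesin subunit gene, had the smallest p (44.8 in control, 54.7 in Meis2-CKO, log2 fold change 0.30, unadjusted p = 0.0393 in the authors' deposited table). Dnmt1, the maintenance DNA methyltransferase, stood at 72.2 and 79.7. Ctcf stood at 71.1 and 73.1, the cohesin gene Rad21 at 134 and 144, the de novo methyltransferase gene Dnmt3b at 2.79 and 2.88, and Smchd1, a repressor that acts at these clusters, at 40.1 and 42.1. The progenitor genes above also lay above 0, and their part in these values was not tested.

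Cytoplasmic partners and cleavage enzymes showed no common direction. Among 24 genes for kinases bound by the constant tails, the WAVE actin complex and other partners, none passed, 13 lay below 0 and 11 above, with a median log2 fold change of -0.00. Prkcd, a protein kinase C gene, had the smallest p (15.4 in control, 9.05 in Meis2-CKO, log2 fold change -0.75, unadjusted p = 0.0111, adjusted p = 0.855 in the authors' deposited table). Ctnnb1, which encodes beta-catenin, stood at 615 and 667. Ptk2, the focal adhesion kinase held by alpha and gamma tails, stood at 31.4 and 31.6, the WAVE complex gene Nckap1 at 69.4 and 69.0, and Axin1 at 17.8 and 19.8. Of 7 cleavage genes, which encode the sheddase ADAM10 and the gamma-secretase subunits, none passed and 4 lay below 0. Psen2 stood at 3.14 and 2.33 and Aph1b at 15.4 and 13.9, and Adam10 at 38.3 and 38.0, in the authors' deposited table.

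**Figure D4:**
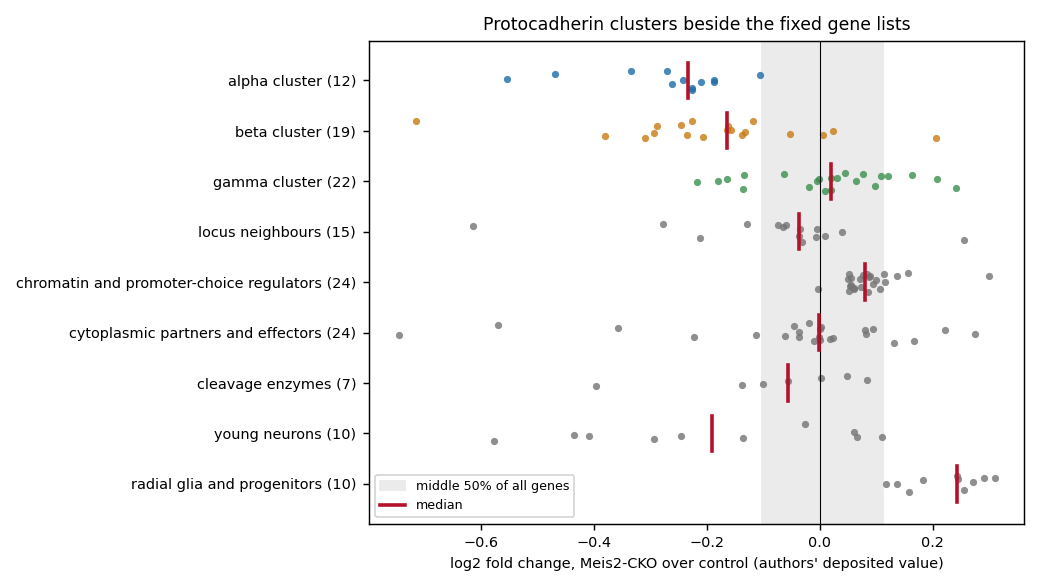
Deposited log2 fold change (Meis2-CKO over control) of the members of each cluster and of 6 gene lists, with the number of listed genes in brackets. Each point is a gene, vertical bars are medians and the grey band holds the middle 50% of all genes. The medians of the alpha and beta clusters (-0.23 and -0.17) and of young neurons (-0.19) lie below the band, and that of progenitors (0.24) above it. The band is not matched for level. Its lower edge would be -0.298 for genes with a control mean from 0.3 to 1, and -0.217 from 1 to 3.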

How the data were processed

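RNA of 8 LGE samples (4 control, 4 Meis2-CKO) was sequenced. The submitters' processing notes list StringTie 1.3.1, HISAT2 2.1.0 and FastQC 0.11.5 and name mm10 and GRCm38.p2 as builds, with no role for any. The deposited table holds the authors' mean expression signal per genotype, their log2 fold change and their p-value with its adjusted form, per the file headers. Recomputing a Benjamini-Hochberg adjustment over all 16913 genes gave the same adjusted values within 1e-14. The 8 columns of values per library carry names that match no sample label and were not used, so the planned models on libraries, the replicate block and the runs without each sample were not made. Differences rest on the authors' p-values at an adjusted p of 0.05.

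Members were matched to GENCODE M21 (GRCm38) by Ensembl identifier. Exon bases, and stretches of 50 and 100 nt found in transcripts of other genes, were counted there. No sequence of these clusters is printed. The members and lists were chosen with earlier results of these data known. Named genes were those with the highest control means, the extreme log2 fold changes (mean of at least 1) and the smallest p per cluster, the C-type genes, and the 2 smallest p-values per pathway list. Other genes named, among them further members, neighbours, regulators, partners, markers and sex-linked genes, were chosen after their values were seen. The adjustment steps were tested on simulated data. Scripts ran under Python 3.11.15 with pandas 2.3.3, numpy 2.4.6, matplotlib 3.10.9 and scipy 1.17.1.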

Additional observations from a re-analysis of the deposited data

How the results depend on the processing

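No paired analysis was possible because the library columns carry no replicate numbers, and leaving out each sample, another normalization and a model on libraries were not run for the same reason. The count of members past the threshold stayed at 0 under the Benjamini-Yekutieli adjustment, among the 13899 genes with a higher mean of at least 1 (37 members) and among the 16451 genes of at least 300 nt. The median log2 fold change was -0.28 to -0.14 for alpha, -0.19 to -0.12 for beta and 0.01 to 0.02 for gamma over a pseudocount of 1, a mean of at least 1, centring on all genes and, added after the data were seen, the log2 ratio of the means. The same ranges held without the row at the place of Pcdha10, Pcdhgb8 or the C-type gamma genes, also added later. The summed gamma signal changed direction: its log2 ratio was -0.02 with all members, 0.0200 without Pcdhgc4, the highest in control, and 0.0213 without Pcdhgc3 and Pcdhgc4, a choice made after the data were seen. Centred on the median of all genes, 12 alpha, 17 beta and 10 gamma members lay below 0. Depth is unknown, so no detection limit is given for the 16 members with means under 1.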
